A study of Mus musculus with 6 samples.

Results

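Gm17334, 9330175E14Rik and Gm38009 are 3 mouse genes known by clone-style names, each lying within or across the end of a named coding gene. They were taken by symbol from the 23127 genes of the deposited table, and were chosen by the difference in their measured levels between interferon gamma (IFNg) and untreated libraries. The values behind the choice were log2 changes of 3.62 for Gm17334, 4.03 for 9330175E14Rik and -3.41 for Gm38009. These values are therefore given as a description, with no test. The 3 had been grouped as noncoding transcripts beside induced genes, and the annotation (GENCODE M21, genome build mm10) goes against that name in part. 9330175E14Rik is annotated as a long intergenic noncoding RNA, Gm17334 as a protein-coding gene, and Gm38009 as TEC, the class of transcripts whose kind is still to be settled by experiment. The genes around the first 2, Irf1 and Nlrc5, were higher with IFNg, while Lamc1, which holds Gm38009, was not called different.

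RNA was measured in 6 libraries of Lgr5-GFP high cells, the intestinal stem cells of C57BL/6 Lgr5-GFP reporter mice sorted from small intestine. The IFNg group (libraries 6, 2 and 10) was kept for 1.5 h with IFNg at 1 ng/ml in medium with EGF, Noggin and R-spondin1. The untreated group (libraries 5, 1 and 9) is labelled as having had no treatment, and its titles carry the same 1.5 as those of the IFNg group. The labels do not say whether the untreated cells stood in the same medium. Age, sex, pooling of animals and the kind of reporter allele are not given in the labels. The tag GFP1 stands in the titles of libraries 6 and 5 and GFP3 in those of libraries 2, 10, 1 and 9, and its meaning is not given. Because nothing says that the libraries came from separate animals or sorts, p-values measure the spread between these libraries, which may be technical.

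Each library held 28508762 to 40224497 reads in genes. Values below are scaled counts, reads divided by the authors' factor for each library, and 1 read was worth 0.853 to 1.05 scaled counts. A count of 0 would allow up to 3 reads, or 2.56 to 3.16 scaled counts, and this covers counting error only. The 6 listed markers of crypt base stem cells summed to 272931 to 275839 scaled counts in IFNg libraries and 259418 to 295978 in untreated libraries. Limma called 0 of them, beside 0.416% of all tested genes called higher and 0.0124% lower. A count of 0 of 6 therefore says nothing particular to these markers. Most of each sum was Olfm4, at 225396 to 240556 in IFNg libraries and 219689 to 266604 in untreated libraries. Lgr5 itself was at 2484 to 5310 in IFNg libraries and 2801 to 8499 in untreated libraries. Smoc2 averaged 21417 ± 8213 with IFNg and 9741 ± 4113 untreated, and Ascl2 averaged 686 ± 158 with IFNg and 358 ± 297 untreated (SD, n = 3 each). Both overlapped between groups, with limma adjusted p of 0.395 for Smoc2 and 0.507 for Ascl2. Products of Paneth cells, the neighbours of stem cells in the crypt, summed to 19347 to 151013 in IFNg libraries and 84307 to 269641 in untreated libraries over 5 markers. Goblet cell markers summed to 39028 to 72612 in IFNg libraries and 32391 to 122793 in untreated libraries. Enteroendocrine markers summed to 3726 to 13478 in IFNg libraries and 4803 to 16348 in untreated libraries. Markers of T and natural killer cells, 3 of 5 listed being in the table, summed to 0.853 to 16.4 in IFNg libraries and 0.860 to 34.0 in untreated libraries. Those of other leukocytes summed to 78.1 to 136 in IFNg libraries and 83.5 to 111 in untreated libraries. The part of these cells in the results was not tested. In bulk RNA, fewer cells of a type and less RNA per cell cannot be told apart.

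IFNg binds a receptor on the cell surface, and the signal runs through Janus kinases to GAS elements near genes such as Irf1. IRF1 is itself a transcription factor that binds interferon-stimulated response elements (ISRE), and NLRC5 switches on the genes of MHC class I presentation. Coding genes often share their locus with transcripts read from the opposite strand, and reads from introns of unspliced RNA can be assigned to small genes annotated inside those introns.

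The loci differ in how the transcripts lie to their coding genes. Gm17334 is a single exon of 907 bases at chr11:53772281-53773187 on the minus strand, opposite to Irf1. It starts 3173 bases downstream of the Irf1 start. Of its bases, 772 (85.1%) lie in Irf1 introns and 135 are antisense to Irf1 exons. 9330175E14Rik spans chr8:94422898-94435103 on the minus strand, with 5938 exon bases. Its 4852-base transcript (chr8:94429813-94435103) starts 747 bases inside Nlrc5, runs back across the Nlrc5 start and covers all 78 bases of the first Nlrc5 exon. Its 1207-base transcript (chr8:94422898-94434166) lies wholly before the Nlrc5 start and shares no base with Nlrc5. Gm38009 is a single exon of 3341 bases at chr1:153283850-153287190. It lies wholly in the first Lamc1 intron, which is 69433 bases long, on the same strand and 45596 bases after the Lamc1 start.

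**Figure D1:**
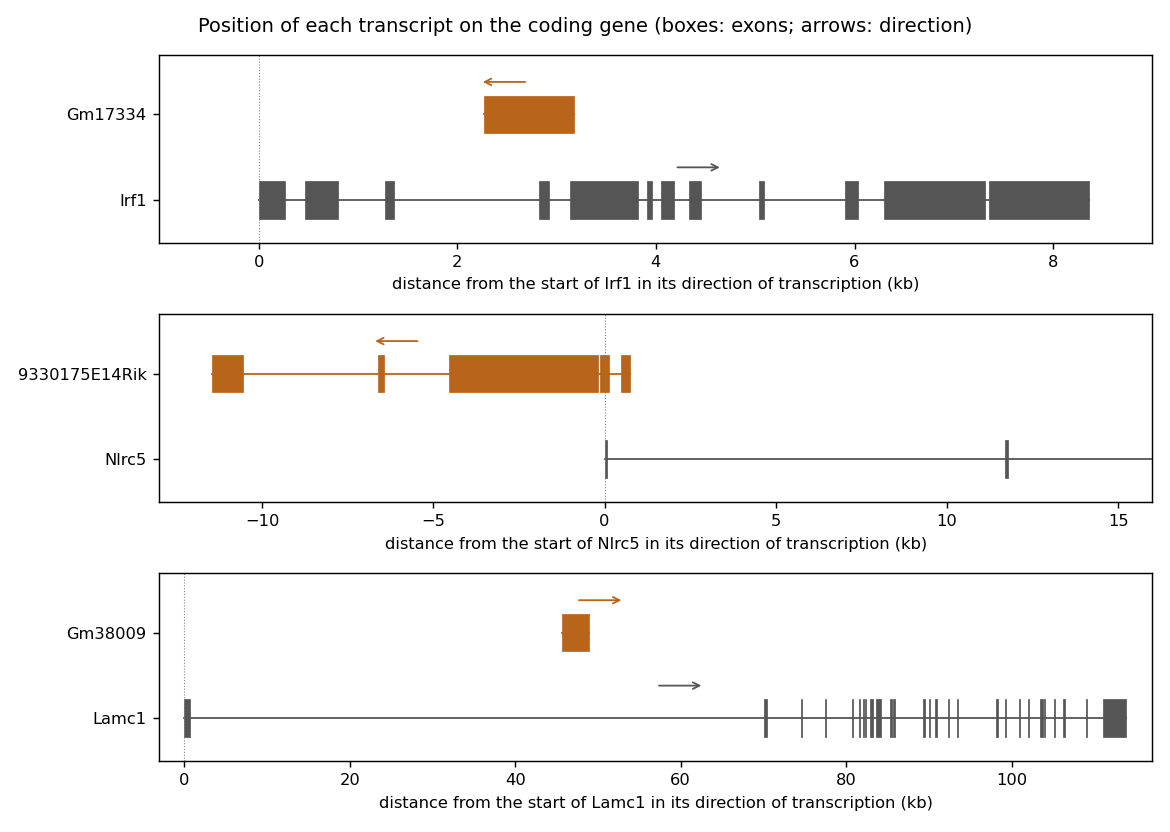
Maps of the 3 loci, drawn to scale as distance in kilobases from the start of the coding gene, with exons as boxes arrows for the direction of transcription and the axis running along the coding gene, of which Nlrc5 is shown only near its start. Gm17334 and 9330175E14Rik run against Irf1 and Nlrc5, while Gm38009 runs with Lamc1 inside its first intron.

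The sequences that bear on this geometry are the start of Irf1, the start of 9330175E14Rik, the coding frame of Gm17334, the stretch of 9330175E14Rik inside the first Nlrc5 exon and the start of Gm38009. The first pair are RefSeq promoter windows of build GRCm38.p6, from 250 bases before to 50 bases after a gene start, and the other 3 come from GENCODE M21 transcripts on mm10. Of the 2 RefSeq windows for Irf1, the one further upstream (chr11:53769764-53770063, plus strand) is shown, and the other holds no match to the GAS or ISRE letters. The shown window has in capitals the letters of a GAS element, TTCNNNGAA, whose first base is 90 bases before the gene start. These letters read the same on both strands and occur in 8.30% of 32851 promoter windows.
Irf1 promoter: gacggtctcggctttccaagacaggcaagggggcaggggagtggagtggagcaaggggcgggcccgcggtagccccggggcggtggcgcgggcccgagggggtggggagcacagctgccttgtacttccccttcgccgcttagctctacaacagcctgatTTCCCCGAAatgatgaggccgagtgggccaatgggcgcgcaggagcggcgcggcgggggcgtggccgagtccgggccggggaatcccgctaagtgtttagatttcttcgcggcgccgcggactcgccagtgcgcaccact
The 9330175E14Rik window (chr8:94435054-94435353, minus strand) lies in the first intron of Nlrc5, at the start of the 4852-base transcript only. It holds neither TTCNNNGAA nor the ISRE letters, GAAA repeated after any 2 bases, on either strand, and the ISRE letters occur in 3.44% of windows.
9330175E14Rik promoter: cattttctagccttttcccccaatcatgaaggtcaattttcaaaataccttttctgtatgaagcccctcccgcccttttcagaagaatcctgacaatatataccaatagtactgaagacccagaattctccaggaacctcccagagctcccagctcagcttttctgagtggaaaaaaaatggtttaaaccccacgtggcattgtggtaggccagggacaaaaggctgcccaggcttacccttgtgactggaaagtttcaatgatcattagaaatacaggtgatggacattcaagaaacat
Within the longer of its transcripts the ISRE letters occur at chr8:94434393-94434402, inside the part antisense to the first Nlrc5 exon. That transcript is 4852 bases long, and it also holds the GAS letters at 3 places, as Gm38009 does at 2, so the share given for promoter windows does not apply to matches in transcripts. The 30 bases around them (chr8:94434383-94434412, minus strand) have the match in capitals.
9330175E14Rik exon: gcgctctgtgGAAACTGAAAgtggccactg
These matches are letters in a sequence, not sites shown to be bound. The annotated coding frame of Gm17334 covers 378 bases, and its first 300 bases (chr11:53772734-53773033, minus strand) are shown because 100 of them, in capitals, are antisense to a coding exon of Irf1.
Gm17334 coding frame: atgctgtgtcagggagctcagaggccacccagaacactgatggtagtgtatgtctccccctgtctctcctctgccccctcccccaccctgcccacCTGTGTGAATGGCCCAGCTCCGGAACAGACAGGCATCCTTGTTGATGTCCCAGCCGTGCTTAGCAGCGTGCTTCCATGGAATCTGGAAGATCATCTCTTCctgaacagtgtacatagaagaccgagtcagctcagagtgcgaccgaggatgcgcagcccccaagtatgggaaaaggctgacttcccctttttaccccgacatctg
The first 200 bases of Gm38009 (chr1:153286991-153287190, minus strand) are intronic sequence of Lamc1 throughout.
Gm38009 start: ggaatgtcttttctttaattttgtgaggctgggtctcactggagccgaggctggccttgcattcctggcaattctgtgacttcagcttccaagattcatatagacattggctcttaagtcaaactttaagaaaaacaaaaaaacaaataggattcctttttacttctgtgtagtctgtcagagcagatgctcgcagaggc
The polyadenylation signal letters AATAAA last occurred 568 bases before the annotated end of Gm38009, against 22 bases in Gm17334 and 22 and 25 bases in the transcripts of 9330175E14Rik.

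Gm17334 was at 67.4, 57.8 and 69.3 scaled counts in IFNg libraries 6, 2 and 10, against 4.21, 2.58 and 7.21 in untreated libraries 5, 1 and 9. Every IFNg library was above every untreated one, as held for 8.13% of the 16095 genes tested, those averaging 10 scaled counts or more. In reads these were 79, 60 and 79 in IFNg libraries and 4, 3 and 7 in untreated libraries, so the untreated level rests on very few reads and library 1 stood at the limit that a count of 0 allows. The means were 64.8 ± 6.14 with IFNg and 4.67 ± 2.35 untreated (SD, n = 3 each), a 13.9-fold difference. The summed reads had a ratio of 14.3, with a 95% exact interval of 8.36 to 26.7 for counting error. By library pair, in the order 6 and 5, 2 and 1, 10 and 9, the log2 change was 3.71, 4.04 and 3.10.

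Irf1, the transcription factor gene around Gm17334, was at 55019, 66943 and 56965 scaled counts in IFNg libraries, against 1718, 1726 and 1876 in untreated libraries. Its level was 33.6-fold higher with IFNg. Per kilobase of sequence not shared with the other gene, Gm17334 averaged 84.0 ± 7.95 scaled counts with IFNg and 6.05 ± 3.04 untreated, and Irf1 averaged 15528 ± 1665 with IFNg and 462 ± 23.2 untreated (SD, n = 3 each). Irf1 was thus far above Gm17334 in both groups. As a percentage of Irf1 scaled counts, Gm17334 was 0.122, 0.0864 and 0.122% in IFNg libraries, against 0.245, 0.150 and 0.384% in untreated libraries. The share was lower in every IFNg library, and the log2 ratio of Gm17334 to Irf1 was -9.82 ± 0.29 with IFNg and -8.37 ± 0.54 untreated, a difference of -1.45 with a pseudocount of 1. The library kit does not mark strand, so reads from Gm17334, from unspliced Irf1 RNA and from the 135 shared bases cannot be told apart.

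9330175E14Rik was at 415, 318 and 359 scaled counts in IFNg libraries, against 15.8, 23.2 and 25.7 in untreated libraries. The groups lay far apart, and no library stood between them. The underlying reads were 487, 330 and 409 in IFNg libraries and 15, 27 and 25 in untreated libraries. Means were 364 ± 48.8 with IFNg and 21.6 ± 5.17 untreated (SD, n = 3 each), a 16.9-fold difference, and the ratio of summed reads was 16.8 with a 95% exact interval of 13.2 to 21.9. The log2 change was largest in the GFP1 pair, at 4.63, with 3.72 and 3.75 in the GFP3 pairs.

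Nlrc5, the class I transactivator gene whose start the 4852-base transcript of 9330175E14Rik covers, was at 816, 873 and 939 scaled counts in IFNg libraries, against 107, 278 and 184 in untreated libraries. Its level was 4.61-fold higher with IFNg, a smaller fold than that of 9330175E14Rik. The transcript stood at 50.9, 36.5 and 38.2% of Nlrc5 scaled counts in IFNg libraries, against 14.7, 8.36 and 14.0% in untreated libraries. The log2 ratio was -1.27 ± 0.26 with IFNg and -3.0 ± 0.46 untreated, a difference of 1.73, opposite in sign to that of Gm17334 and Irf1. Per own kilobase, 9330175E14Rik averaged 62.1 ± 8.33 scaled counts with IFNg and 3.68 ± 0.882 untreated, and Nlrc5 averaged 104 ± 7.29 with IFNg and 22.6 ± 10.1 untreated. Of the 5938 exon bases, 5860 lie outside Nlrc5 exons and 311 lie in its first intron. The table lists version 1 of 9330175E14Rik and version 12 of Nlrc5, whereas M21 has versions 2 and 13, so the exons counted may differ from those drawn.

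Gm38009 was at 4.26, 7.71 and 3.51 scaled counts in IFNg libraries, against 57.9, 60.2 and 68.0 in untreated libraries. Every IFNg library was below every untreated one, as held for 5.06% of the genes. The reads were 5, 8 and 4 in IFNg libraries and 55, 70 and 66 in untreated libraries, so here the few reads are on the IFNg side. Means were 5.16 ± 2.24 with IFNg and 62.0 ± 5.26 untreated (SD, n = 3 each), 12.0-fold lower with IFNg, and the ratio of summed untreated reads to summed IFNg reads was 12.2 with a 95% exact interval of 7.43 to 21.4. The log2 change by pair was -3.48, -2.81 and -3.94. Only Bcl6, at -3.63, and the processed pseudogene Gm18830, at -3.56, had a more negative log2 change among the genes tested, and the next after Gm38009 was Pcyt1b at -3.24.

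Lamc1, which encodes the laminin gamma 1 chain of basement membranes, was at 72.5, 239 and 556 scaled counts in IFNg libraries, against 134, 341 and 317 in untreated libraries. The groups overlapped, and Lamc1 did not pass the test (log2 change -0.19 ± 0.70 SE, limma adjusted p = 0.966). Lamc1 was lowest in libraries 6 and 5, the GFP1 pair, where Gm38009 was the middle value of its IFNg group and the lowest of its narrow untreated group. Gm38009 stood at 5.88, 3.23 and 0.631% of Lamc1 scaled counts in IFNg libraries, against 43.3, 17.7 and 21.4% in untreated libraries. Per kilobase, Gm38009 averaged 1.55 ± 0.671 scaled counts with IFNg and 18.6 ± 1.57 untreated, beside 35.0 ± 29.7 with IFNg and 31.9 ± 13.7 untreated for Lamc1. Gm38009 lies on the strand of Lamc1, and its reads and those of unspliced Lamc1 RNA cannot be told apart.

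**Figure D2:**
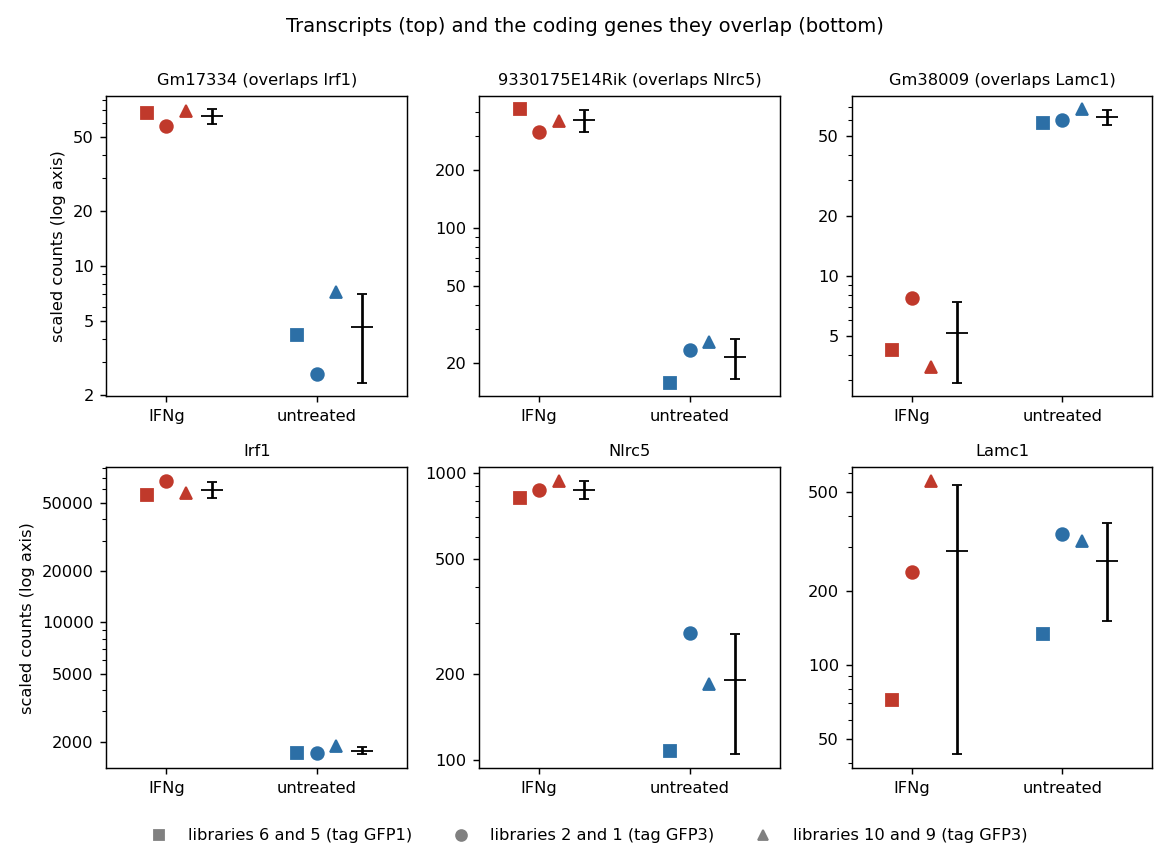
Scaled counts per library on log axes for the 3 transcripts (top) and the coding genes they overlap (bottom), with bars for mean and SD of 3 libraries and symbols for library pairs. Gm17334 and 9330175E14Rik were higher in all 3 IFNg libraries, Gm38009 was lower in all 3, and Lamc1 overlapped between groups.

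**Figure D3:**
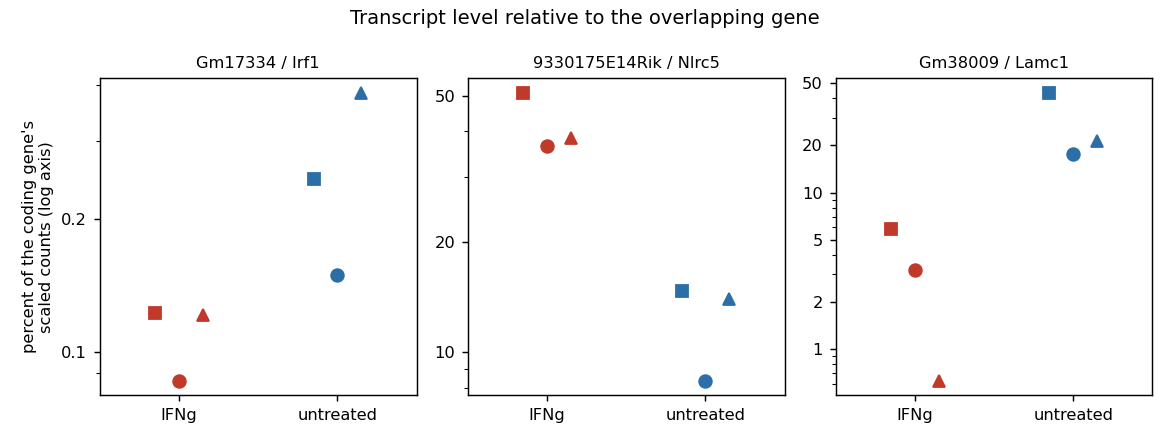
Each transcript as a percentage of the scaled counts of its coding gene, per library on log axes. The share was lower with IFNg for Gm17334 and Gm38009 and higher for 9330175E14Rik, at 36.5 to 50.9% with IFNg against 8.36 to 14.7% untreated.

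Other genes near the 3 transcripts did not pass the test. Within 100 kb lie 22 annotated genes, of which 14 are in the table and 11 were tested, 9 of them other than Irf1 and Nlrc5. Of these 9, 0 were called by limma at an adjusted p below 0.05, 1 had an unadjusted p below 0.05, DESeq2 called 1 and edgeR 0. The shares called over all genes by limma were 0.416% higher and 0.0124% lower. At an unadjusted p below 0.05, limma had 1362 higher and 122 lower of 16095 genes, so 1 of 9 says nothing particular to these neighbours. DESeq2 called 465 of all tested genes and edgeR 60. The neighbour with the low unadjusted p, also the one called by DESeq2, was Cpne2, a calcium-dependent membrane-binding copine past the far end of Nlrc5. Cpne2 was at 125, 208 and 347 scaled counts in IFNg libraries, against 76.9, 62.8 and 36.0 in untreated libraries. Its groups did not overlap, at a log2 difference of 1.88 ± 0.48 SE and a limma adjusted p of 0.282. The adjusted p was 0.00836 with DESeq2 and 0.00966 in limma on the GFP3 libraries alone. In no other alternative run did Cpne2 pass, edgeR among them. There its limma adjusted p ran from 0.0829 without untreated library 5 to 0.923 without untreated library 9.

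On chromosome 11, the log2 change was -0.20 for the DNA repair gene Rad50, 0.05 for the carnitine transporter gene Slc22a5 and 0.47 for Gm12216, with limma adjusted p of 0.919, 0.985 and 0.872 in that order. On chromosome 8, Herpud1, which acts in the degradation of misfolded proteins of the endoplasmic reticulum, averaged 7349 ± 1729 scaled counts with IFNg and 11757 ± 3088 untreated (SD, n = 3 each; limma adjusted p = 0.566). The pseudogene Ap3s1-ps2 stood at a log2 difference of 1.12, with a limma adjusted p of 0.617. On chromosome 1, the log2 change was -0.43 for the pseudogene Gm8818 inside Lamc1, with a limma adjusted p of 0.956. The low genes Slc12a3, Gm15889 and Gm15890 were not tested.

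**Figure D4:**
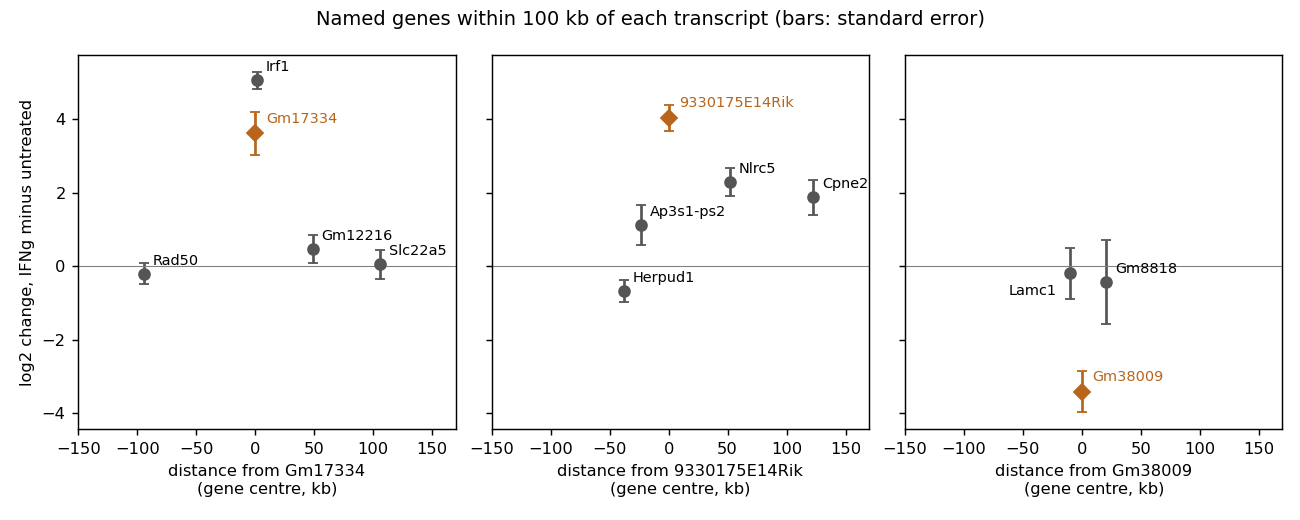
Log2 change, IFNg minus untreated, of the named tested genes within 100 kb of each transcript, against distance in kilobases between gene centres, with bars for SE; the 100 kb limit counts from gene edges, so centres can lie further off. Apart from the 3 transcripts, Irf1 and Nlrc5, the genes shown ran from -0.67 for Herpud1 to 1.88 for Cpne2.

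The tag in the titles gave a comparison that the choice of the transcripts did not use. With treatment in the model, the GFP3 minus GFP1 log2 difference was -0.02 for Gm17334 (limma adjusted p = 0.989), 0.15 for 9330175E14Rik (limma adjusted p = 0.822) and 0.20 for Gm38009 (limma adjusted p = 0.856). None of the 3 passed, and 7.75% of all tested genes did, so 0 of 3 says nothing particular to them. Of their neighbours 3 passed, among them Lamc1 at 1.80 (limma adjusted p = 0.0418) and Slc22a5 at 0.98 (limma adjusted p = 0.0339), both higher in GFP3 libraries. GFP1 is a single pair of libraries, and the libraries of a pair deviated together, so the fit, which takes the 6 as independent, compares 1 pair with the other two and its p-values may be too small. The 3 calls were fragile, with 0 left without library 6, 2, 10 or 1, 1 left without library 5, and 1 with edgeR. The test of whether the IFNg difference itself differed between tags gave adjusted p = 0.980 for Gm17334, 0.663 for 9330175E14Rik and 0.985 for Gm38009 in limma, with a single library per group under GFP1.

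The genes whose profile over the 6 libraries lay nearest were named by Euclidean distance between log2 levels, each centred on its own mean, among 16094 genes. Nearest to Gm17334 were Crem at 0.51, the apolipoprotein L gene Apol9a at 0.89 and 9930111J21Rik2 at 0.92. Crem, a regulator of cyclic AMP responsive genes, was at 11518, 9200 and 11028 scaled counts in IFNg libraries, against 728, 800 and 1347 in untreated libraries. Its highest untreated library was number 9, as for Gm17334. Nearest to 9330175E14Rik were Pde4b at 0.68, 9930111J21Rik2 at 0.77 and Crem at 0.78. Pde4b, a cyclic AMP phosphodiesterase, was at 4360, 5442 and 4343 scaled counts in IFNg libraries, against 274, 384 and 307 in untreated libraries. Nearest to Gm38009 was Bcl6, a transcriptional repressor, at the wider distance of 1.18. Bcl6 was at 237, 179 and 249 scaled counts in IFNg libraries, against 2280, 3394 and 2624 in untreated libraries. The next were the receptor gene Gpr61 at 1.71, with 6 reads over the IFNg libraries and 60 over the untreated libraries, and Gm37125 at 1.92, another TEC transcript of chromosome 1 at 5.97, 12.5 and 6.14 scaled counts in IFNg libraries, against 42.1, 25.8 and 30.9 in untreated libraries. These distances describe 6 libraries and are dominated by the difference between the groups.

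Noncoding genes beside coding genes that were called higher were few. Within 5 kb of such a gene 8 noncoding genes were tested, one of them 9330175E14Rik. Since 9330175E14Rik was chosen by its level, it is left out of what follows. The remaining 7 had a median log2 change of 0.78, with 6 above 0, beside -0.10 for the other 1593 noncoding genes and -0.08 for all tested genes. Of the 7, 2 were higher in every IFNg library than in any untreated one, beside 5.27% of the other noncoding genes and 8.13% of all tested genes, and limma called 1. Gm11775, an antisense transcript at chr11:121029402-121052357 near Sectm1b, was at 327, 600 and 437 scaled counts in IFNg libraries, against 12.6, 22.4 and 16.5 in untreated libraries. It rose 26.5-fold (log2 change 4.64 ± 0.40 SE, limma adjusted p = 7.75e-04), and it passed with each single library left out. Gdap10, which overlaps Nampt on the same strand, was at 1498, 1849 and 2507 scaled counts in IFNg libraries, against 245, 614 and 498 in untreated libraries, and missed the threshold (log2 change 2.17 ± 0.39 SE, limma adjusted p = 0.0656). It passed without untreated library 5 (limma adjusted p = 0.0311), with the tag as a covariate (limma adjusted p = 0.00624), with the library pairs as a replicate block (limma adjusted p = 0.0252), in the GFP3 libraries alone (limma adjusted p = 0.0043) and with DESeq2 (adjusted p = 3.49e-05). Over the 16 alternatives run, by limma, edgeR or DESeq2, the adjusted p of Gdap10 ran from 3.49e-05 to 0.316, so not all called it. The log2 change of Gdap10 was 1.78 to 2.44 in these fits. Gdap10 shares no exon base with Nampt, and its reads and those of unspliced Nampt RNA cannot be told apart. The other 5 overlapped between groups, from -0.45 for Gm15564 beside Parp9 to 1.52 for Gm6225 beside Crem on the log2 scale. Among the 1593 noncoding genes further away, limma called 0 higher, with 44 higher at an unadjusted p below 0.05. The 1593 include Gm38009, itself chosen by its level, which was the 1 called lower and reads as description. DESeq2 called 12 of the 1593 and edgeR 1 in either direction.

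Well-known long noncoding RNAs gave no call. Of 63 listed, 44 were in the table and 33 were tested. Limma called 0, beside 0.416% of all tested genes called higher and 0.0124% lower, so 0 of 33 says nothing particular to this list. At an unadjusted p below 0.05 in limma 1 was higher, beside 1362 of all 16095 tested genes. DESeq2 and edgeR called 0, beside 465 and 60 of all tested genes. The median log2 change of the 33 was -0.19, with 9 above 0, beside -0.08 and 6911 above 0 over all tested genes. Malat1, an abundant RNA of nuclear speckles, averaged 40144 ± 17961 scaled counts with IFNg and 60928 ± 16651 untreated (SD, n = 3 each; limma adjusted p = 0.702). Neat1, the scaffold of paraspeckles, stood at -0.40 on the log2 scale, with a limma adjusted p of 0.903. The gene with the low unadjusted p was 2900097C17Rik, with a log2 change of 1.01 (limma adjusted p = 0.449).

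The pathway in which IRF1 and NLRC5 act was represented by 33 listed genes, all tested. Of these 5 rose and 0 fell, beside 0.416% of all tested genes called higher. In every IFNg library 11 (33.3%) were higher than in any untreated one, beside 8.13% of all tested genes, and 1 was lower in every IFNg library, the receptor chain gene Ifngr1 (log2 change -0.71, limma adjusted p = 0.561). Irf1 and Nlrc5 are among the 5 and among the 11. They were known as induced when the transcripts were grouped, so their part in both counts is description only. The list had a median log2 change of 0.29. Apart from Irf1 and Nlrc5, the genes that rose were the transcription factor genes Irf8 (limma adjusted p = 8.03e-04) and Irf9 (limma adjusted p = 0.0032) and the feedback inhibitor gene Socs1 (limma adjusted p = 0.00124). Among NLRC5 targets and partners in class I presentation, the peptide transporter gene Tap1 stood at 2.71 on the log2 scale (limma adjusted p = 0.0562), the immunoproteasome gene Psmb9 at 0.81, the light chain gene B2m at 0.50 (limma adjusted p = 0.856) and the heavy chain gene H2-K1 at 0.02, and none of the 4 passed. The call of Nlrc5 was lost with edgeR (adjusted p = 0.0617) and in limma without library 6 (adjusted p = 0.0659), 2 (adjusted p = 0.196), 10 (adjusted p = 0.205) or 9 (adjusted p = 0.174), with log2 changes of 2.16 to 2.35 in these fits. DESeq2 called 10 of the list and edgeR 4, beside 465 and 60 of all 16095 tested genes. Without untreated library 5, limma called 8 of the list higher, beside 366 of all genes tested in that run.

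Gm38009 belongs to a class that could be counted, TEC genes inside an intron of a tested coding gene on the same strand, a set that was defined after its values were seen and has no test. Of 278 such genes, 34 (12.2%) were lower in every IFNg library than in any untreated one, and 7 (2.52%) were higher in every one. Gm38009 is itself among the 278 and among the 34, and its part in both counts is description only. The set had a median log2 change of -0.30, with 96 above 0. The same shares over all tested genes were 5.06% lower and 8.13% higher, with a median of -0.08. The 215 coding genes around them had 5.58% lower and 10.7% higher, with a median of -0.08, and the 219 other TEC genes had 6.85% lower and 7.31% higher, with a median of -0.07. Summed over the 278, scaled counts were 13432, 13183 and 14038 in IFNg libraries, against 17941, 16274 and 14937 in untreated libraries, so the groups were apart but library 9 lay close to the IFNg range. With TMM scaling the split was 13.7% lower and 2.16% higher. By library pair the median was -0.46, -0.13 and -0.19, and over all tested genes 0.01, -0.08 and -0.18 in the same order, so both GFP3 pairs lay near the level of their own background and the GFP1 pair, libraries 6 and 5, differed most from its own. The median of the set was -0.12 in the GFP3 libraries alone and -0.18 without untreated library 5, within a range of -0.40 to -0.12 over the alternatives. Gm38009, at -3.41, lay far below the median of the set. A TEC gene in Tcf12, Gm37137, chosen after its values were seen, averaged 36.8 scaled counts with IFNg and 148 untreated (limma adjusted p = 0.267). The TEC genes Gm38057, Gm38111, Gm37879, A430027C01Rik and Gm37663, also in Tcf12, overlapped between groups, with log2 changes from -0.79 to 0.28. The share of reads from unspliced RNA was not tested.

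**Figure D5:**
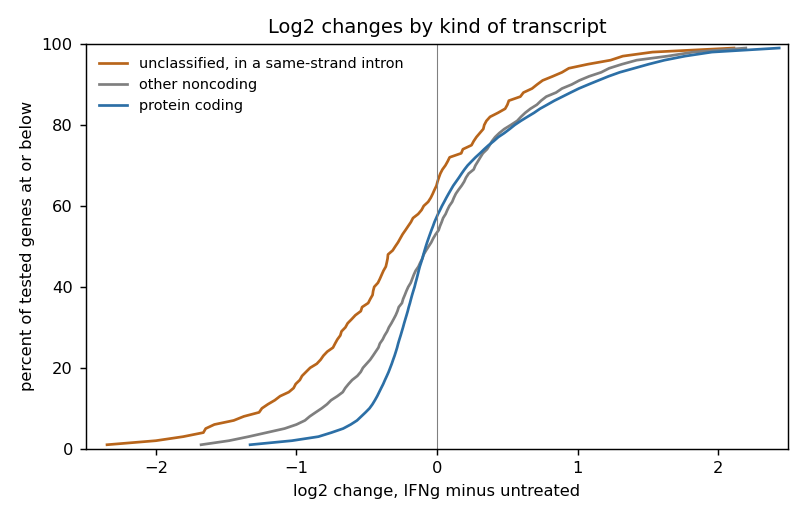
Cumulative percentages of tested genes by log2 change, IFNg minus untreated, for TEC genes in a same-strand intron, other noncoding genes and protein-coding genes. The curve of the intronic TEC genes lies to the left of the others over most of its length, with a median of -0.30.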

How the data were processed

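RNA was made into cDNA with a SMART-Seq v4 kit and into libraries with a KAPA kit, per the labels' protocols. Build mm10, HTSeq 0.5.3, DESeq 1.22.1, STAR 2.5.0a and cutadapt 1.6 are named in the submitters' processing notes. Neither annotation release nor strand setting is given there. The deposited table holds a signal, gene counts that the authors divided by a factor for each library, and whole reads were recovered for 100% of 138762 values within 0.01 read. The 4 lines that name no gene were left out. Of all reads listed, they held 18.5 to 25.0% for reads with no unique place, 9.67 to 14.2% for no feature, 0.948 to 1.20% for ambiguous and 8.83 to 15.4% for not aligned.

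Levels of the 16095 genes averaging 10 or more were put on a log2 scale after adding 1 and tested with limma (3.58.1, R 4.3.3) under trend and robust settings, with calls at a Benjamini-Hochberg adjusted p below 0.05. Fold changes on this log2 scale understate low genes. On the recovered reads, edgeR 4.0.16 and DESeq2 1.42.0 were alternatives, and edgeR called 60 genes. On simulated counts of 15567 genes the limma step recovered 6.12% of genes changed 2-fold, 80% at 4-fold, 96% at 8-fold and 98% at 16-fold. Of the table, 23006 genes matched GENCODE M21 and 121 did not.

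The transcripts, lists and tests were chosen with earlier results of these data known. Named genes were the 3 transcripts, the coding genes Irf1 and Nlrc5, tested neighbours within 100 kb, called genes of the 2 lists, and the 3 nearest profiles per transcript. Others were named after their values were seen, and 1 tested neighbour is not reported here by name. Libraries numbered 6 and 5, 2 and 1, and 10 and 9 deviated together, with correlations of 0.30, 0.40 and 0.25, a hint from the data, not from the labels.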

Additional observations from a re-analysis of the deposited data

How the results depend on the processing

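No named gene that was called changed sign under the alternatives run. Without a call, the log2 change ran from -0.88 to 0.58 for Lamc1 and from -1.53 to 0.58 for Gm8818. Over the alternatives run, the log2 change was 2.88 to 3.93 for Gm17334, 3.73 to 4.17 for 9330175E14Rik and -3.69 to -2.74 for Gm38009. The values nearest 0 for Gm17334 and Gm38009 came with a pseudocount of 5, and both genes could not be fitted at a mean of at least 50. The difference in log2 ratio of Gm17334 to Irf1 was -1.31 with a pseudocount of 0.5 and -2.19 with 5, against -1.45.

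Calls over all genes were 67 higher and 2 lower. DESeq2 gave 457 higher and 8 lower, the GFP3 libraries alone 1337 and 11, the tag as a covariate 108 higher, and the pseudocount of 0.5, the mean of at least 50 and the replicate block each 1 lower. Leaving out single libraries gave 41 to 366 higher, with 366 without untreated library 5, and 1 to 3 lower. Of the neighbours, the GFP3 libraries alone and DESeq2 each called 1, against 0. Noncoding genes beside higher genes had 2 calls, of which 1 was the chosen transcript 9330175E14Rik and reads as description, against 11 in GFP3 libraries alone and 6 with DESeq2, where more coding genes are called, 1 with edgeR, 1 within 1 kb, and 1 to 3 without single libraries. The long noncoding list had 1 call in GFP3 libraries alone, against 0. The pathway list had 5, of which Irf1 and Nlrc5 read as description, against 10 in GFP3 libraries alone, 10 with DESeq2, and 4 to 8 without single libraries. The tag calls of 3 became 1 with edgeR and 0 to 2 without single libraries. The cause of these differences between runs was not tested. Low depth limits Gm17334 in untreated and Gm38009 in IFNg libraries.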
